A study of Mus musculus with 6 samples.

Results

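Marker and signalling genes of the liver sinusoidal endothelium, 32 in number, were followed in the livers of *Txndc5*-deficient and wild type mice. The genes were taken by symbol from the deposited gene table, and all 32 were found among its 16123 genes. In all, 6 RNAseq libraries of liver RNA were compared, 3 of wild type (WT) and 3 of knock-out (KO) mice, and each library came from RNA pooled from 3 mice. WT mice were labelled C57BL/6Rj (the methods name C57BL/6J), and KO mice carried the CRISPR allele C57BL/6JRj-Txndc5<em2Mdnp>/Ciba, a germline deletion of the third exon from 1 line. Both genotypes were 2-month-old males from heterozygous crosses that ate purified chow for 4 weeks and were fasted for 16 h before sacrifice.

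Liver sinusoidal endothelial cells line the capillaries of the liver, and their open pores let plasma reach the hepatocytes. They clear waste molecules from the blood through scavenger receptors and lectins, and they send signals to their neighbours. Among these signals, the bone morphogenetic proteins BMP2 and BMP6 drive hepcidin production in hepatocytes, and WNT2 and the R-spondin RSPO3 maintain the gene programme of hepatocytes near the central vein. Whole liver was sequenced, so that fewer endothelial cells and less RNA per endothelial cell cannot be told apart in any value below.

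The deposited values of the sinusoidal genes differed little between the genotypes. Of the 32, none had a value more than 0.5 higher on the log2 scale in KO and 1 lay more than 0.5 lower, namely *Rspo3*. Among all 11367 genes that averaged 10 or more over both genotypes, 10.4% passed this limit in one direction or the other, 7.90% toward KO-lower and 2.48% toward KO-higher. A limit of 0.25 was passed by 5 members, beside 35.2% of all genes, and a limit of 1 by none, beside 0.897%. The median log2 ratio of KO over WT was −0.04 over the members and −0.05 over those genes. In 21 members KO had the lower value, beside 57.7% of all genes, and 16 members lay below the median of all genes, beside 49.9%. Apart from *Rspo3*, the members ranged from −0.35 for *Lyve1* to 0.25 for *Ehd3*.

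The table holds 1 value per gene and genotype, which are reads divided by a size factor for each library, combined over its 3 libraries. Its log2 ratio is shrunken toward 0, the more so for weakly read genes, and it carries no spread between libraries. Its counting error alone, as the SE of a member's log2 ratio, ran from 0.024 for *Eng* to 0.24 for *Rspo3*. For weakly read genes the whole reads behind the value of each library could be worked out, which gave the spread for 8 members. These libraries could not be tied to pool numbers, and are given in the order of size factors 1.31, 1.04 and 0.886 for KO and 1.22, 0.879 and 0.818 for WT.

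The libraries held 44.04 to 46.05 M clean reads, and 62.19% to 65.69% of them mapped to 1 place. Size factors, from 0.818 to 1.31, spanned a wider range than the clean reads did. The targeted gene *Txndc5* was read at 2697 in WT and at 90.8 in KO, 29.7-fold lower. The library with the largest size factor stood apart in each genotype: in 3307 recovered genes, those libraries were the highest of their genotype together in 40.1%. Among the 8 members, that KO library was the highest of KO in 6 and that WT library the highest of WT in 3. Its part in the members' values was not tested beyond the values given without it.

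**Figure D1:**
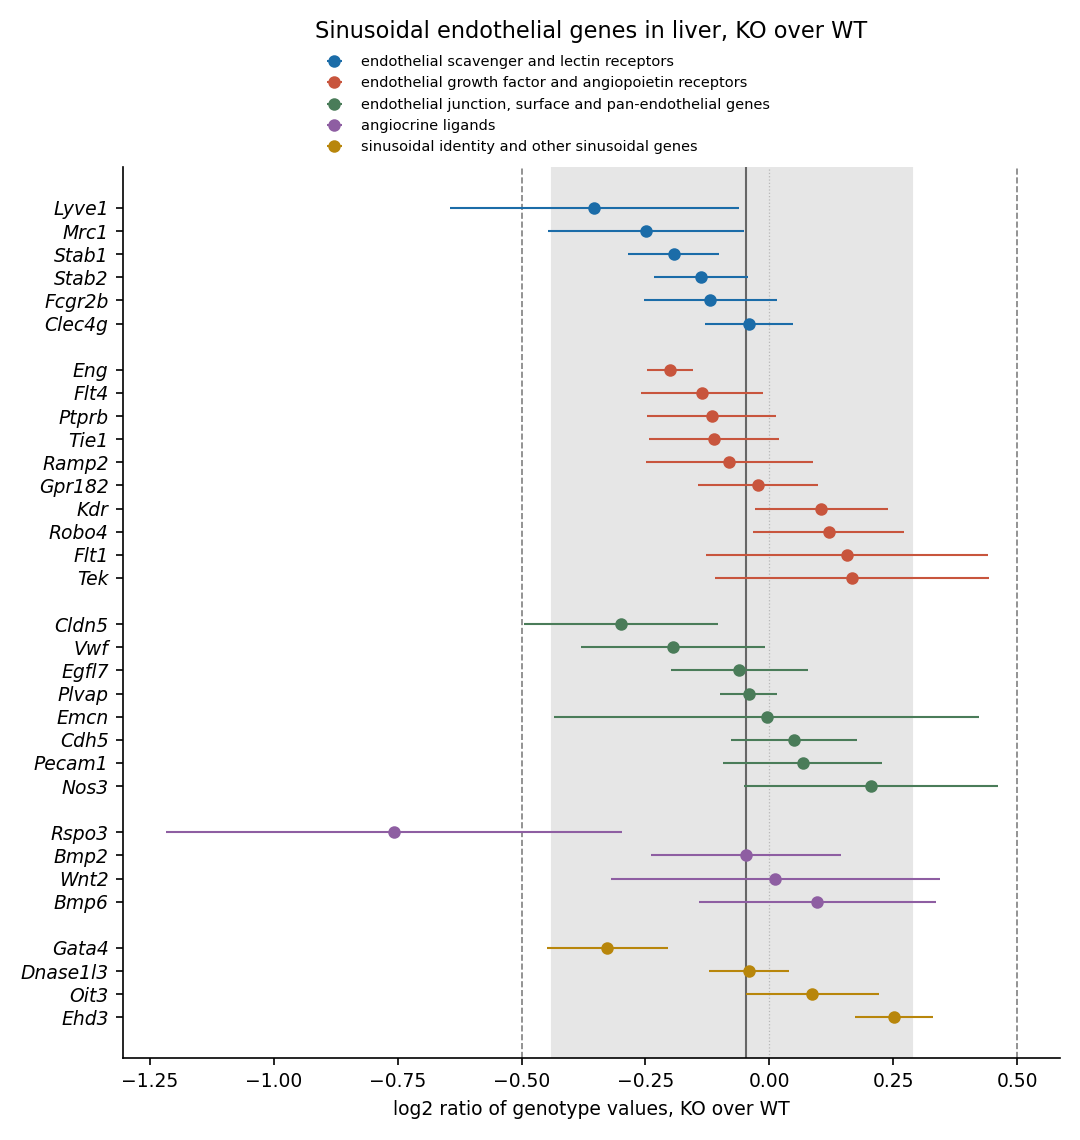
Log2 ratio of the genotype values, KO over WT (x axis), for each of the 32 members, coloured by role. Bars are 95% intervals from counting error and leave out the spread between libraries, the solid line is the median of 11367 genes, the grey band runs from their 10th to their 90th percentile (−0.44 to 0.29), and dashed lines stand at −0.5 and 0.5. Only *Rspo3* lies outside the band.

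Promoter sequences were searched for motifs, which had no part in the choice of the members. Endothelial promoters are known for sites of ETS factors, whose core reads GGAA. In the 250 bases before the annotated start, AGGAAG was searched on both strands together with its variant CGGAAG, and one or the other was found in 10 of the 18 members listed in the RefSeq promoter table (55.6%), beside 42.5% of the promoters of 27025 genes. The GATA factor motif AGATAA, or its variant TGATAA, was present in 2 of the 18 (11.1%, beside 18.8% of all), and TATAAA in 2 (11.1%, beside 14.3%). Whether their sites share bases with ETS core matches was not checked. Printed here as examples, not as a drawn sample of the 18, are 4 windows 5′ to 3′ that lie wholly before the annotated gene. These are the scavenger receptor *Stab1* (chr14:31168642-31168891, minus strand), the lectin *Clec4g* (chr8:3720652-3720901, minus strand), the VEGF receptor *Flt1* (chr5:147726012-147726261, minus strand) and the angiopoietin receptor *Tek* (chr4:94739039-94739288, plus strand). They are from RefSeq on GRCm38.p6, the end of each run is next to the start of the gene, and capitals mark the ETS core matches.
Stab1: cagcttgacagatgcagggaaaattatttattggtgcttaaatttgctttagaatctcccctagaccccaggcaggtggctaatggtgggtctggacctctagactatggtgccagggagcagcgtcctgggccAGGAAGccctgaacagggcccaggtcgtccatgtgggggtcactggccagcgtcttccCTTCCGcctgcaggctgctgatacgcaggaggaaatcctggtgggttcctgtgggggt
Clec4g: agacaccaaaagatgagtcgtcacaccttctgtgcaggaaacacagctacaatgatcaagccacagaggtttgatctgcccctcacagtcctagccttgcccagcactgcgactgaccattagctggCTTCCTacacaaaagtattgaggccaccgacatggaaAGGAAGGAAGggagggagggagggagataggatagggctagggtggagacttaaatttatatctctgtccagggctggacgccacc
Flt1: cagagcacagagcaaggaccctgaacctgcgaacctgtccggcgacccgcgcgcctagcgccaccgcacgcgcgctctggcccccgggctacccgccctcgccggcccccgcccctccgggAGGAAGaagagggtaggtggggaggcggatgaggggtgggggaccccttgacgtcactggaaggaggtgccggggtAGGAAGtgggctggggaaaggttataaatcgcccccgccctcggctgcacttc
Tek: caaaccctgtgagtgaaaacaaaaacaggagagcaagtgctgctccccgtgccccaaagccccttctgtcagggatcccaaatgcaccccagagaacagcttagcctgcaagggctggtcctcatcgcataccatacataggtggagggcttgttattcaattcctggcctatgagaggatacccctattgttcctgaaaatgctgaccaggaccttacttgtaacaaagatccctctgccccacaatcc
*Stab1* holds 2 matches, the first 116 bases before the start, *Clec4g* holds 3 of which a pair overlap, *Flt1* holds 2, and *Tek* has none. *Flt1* and *Tek* were read much alike in the libraries, as given further on. The letters were matched as text, no binding was measured, and no motif is called particular to the members.

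Per kilobase of gene length, the members spanned a wide range of levels. *Plvap*, which forms the diaphragms of endothelial pores, was read highest with 804 per kilobase as the mean of both genotypes, followed by the TGF-beta co-receptor *Eng* with 723 and the lectin *Clec4g* with 543. Lowest were *Flt1* with 10.5, *Rspo3* with 11.1 and *Tek* with 14.9. The median of the 11367 genes was 58.4 per kilobase, and 19 of the 32 members lay above it. None reached the 90th percentile of 903. All 32 averaged over 10, so the defining markers of this endothelium were present in the sequenced tissue.

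**Figure D2:**
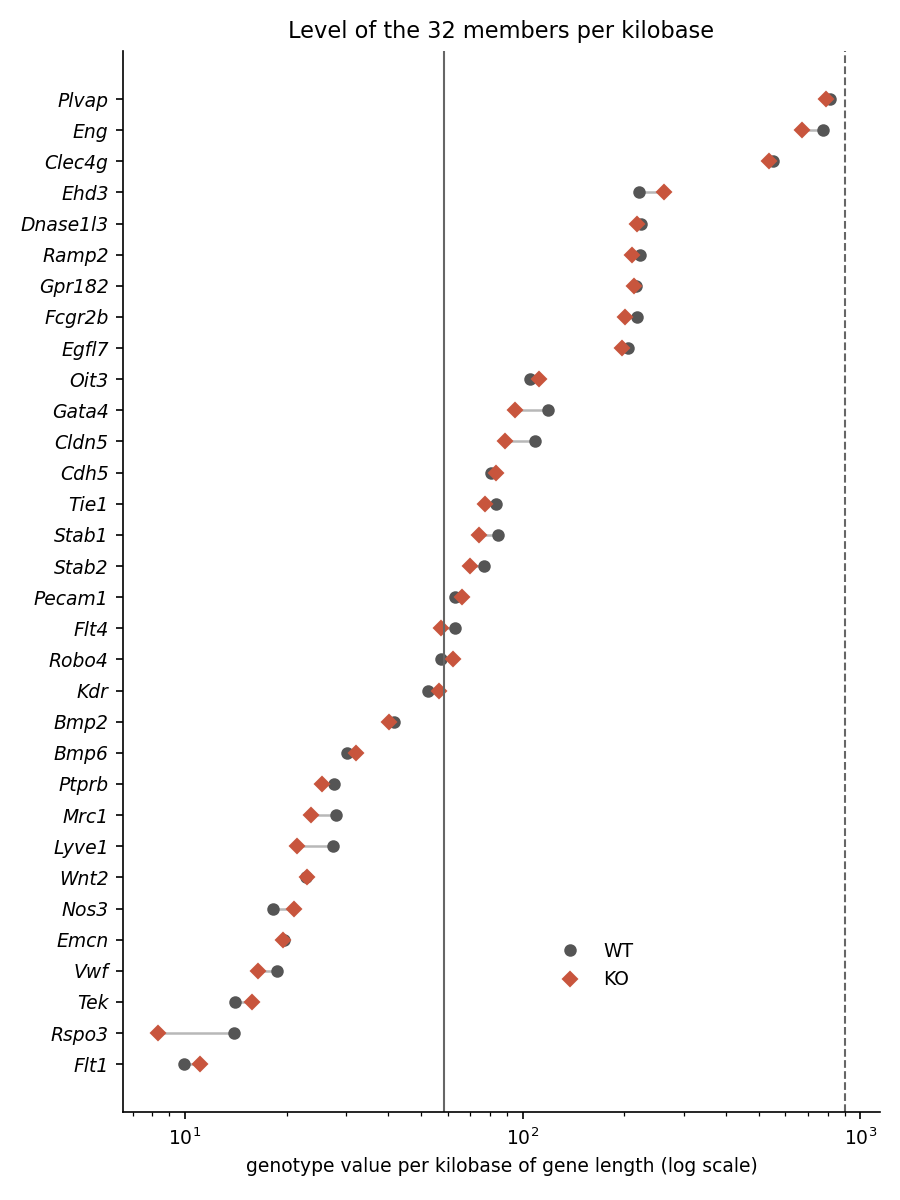
Genotype value per kilobase of gene length (x axis, log scale) of the 32 members in WT (circles) and KO (diamonds), ordered by their mean. The solid line is the median of 11367 genes at 58.4 and the dashed line their 90th percentile at 903, and the markers of the 2 genotypes are furthest apart in *Rspo3*.

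The scavenger and lectin receptors were the group with the most uniform sign. KO was the lower genotype in all 6, their median log2 ratio was −0.17, and 5 of the 6 lay below the median of all genes. No test across the group was run, and 57.7% of all genes had the lower value in KO. The stabilins *Stab1* and *Stab2*, scavenger receptors that clear ligands from sinusoidal blood, had 676 and 628 in WT and 592 and 571 in KO, log2 ratios of −0.19 and −0.14. *Clec4g*, a C-type lectin, had 682 in WT and 663 in KO. The Fc receptor *Fcgr2b*, which takes up immune complexes, had 308 in WT and 284 in KO. The mannose receptor *Mrc1*, which macrophages use as well, was read at 149 in WT and 126 in KO, with a ratio of −0.25 on the log2 scale.

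*Lyve1*, a hyaluronan receptor shared with lymphatic vessels, had the lowest ratio of the group at −0.35, from 71.6 in WT and 56.1 in KO. Its recovered reads over size factor were 86.9, 40.5 and 33.9 in KO and 80.0, 116 and 25.7 in WT. The WT libraries held both the highest and the lowest of the 6 values, 4.52-fold apart, and every KO value lay between them. The means were 53.8 ± 28.9 in KO and 73.9 ± 45.5 in WT (SD, n = 3 libraries each), and an exact permutation test of their difference gave p = 0.7 (two-sided, smallest possible p 0.1). *Lyve1* (NCBI Gene 114332) lies on chromosome 7 from 110850607 to 110863239 on the minus strand of GRCm38.

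The receptors of endothelial growth factors and angiopoietins showed both signs. KO had the lower value in 6 of 10, and the median log2 ratio was −0.05. Of the VEGF receptors, *Kdr* had 286 in WT and 308 in KO, and *Flt4*, which binds VEGF-C, had 370 and 336. *Tie1* and the phosphatase *Ptprb*, which acts on TIE2, had 324 and 330 in WT and 300 and 304 in KO. *Eng* had the lowest ratio of this group at −0.20, from 2654 in WT to 2311 in KO, while the guidance receptor *Robo4* stood at 0.12 with 221 and 240. The atypical chemokine receptor *Gpr182* and the adrenomedullin co-receptor *Ramp2* had log2 ratios of −0.02 and −0.08. In the annotation, exons of *Ramp2* share 1103 bases with *Vps25* on the same strand, a gene read at 1570 in WT, so the reads of these bases could have been counted for either. In all, 7 members share exon bases with another coding gene, and without them the median of the members was again −0.04.

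*Flt1*, a VEGF receptor that also acts as a decoy, had 91.4, 65.7 and 53.1 reads over size factor in KO and 71.9, 46.6 and 67.3 in WT. Means were 70.1 ± 19.6 and 61.9 ± 13.4 (SD, n = 3 libraries each, exact permutation p = 0.600). The KO library with the largest size factor was highest of the 6, and the other two KO values lay within the range of WT. *Tek*, which encodes the angiopoietin receptor TIE2, ran much like *Flt1*, with 99.1, 65.7 and 59.8 in KO and 82.5, 46.6 and 67.3 in WT. Its means were 74.8 ± 21.2 in KO and 65.5 ± 18.0 in WT (SD, n = 3 libraries each, exact permutation p = 0.7). In 3 of the libraries *Flt1* and *Tek* were given the same whole number of reads, 68 in one KO library and 41 and 55 in a pair of WT libraries.

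Junction and pan-endothelial genes had a median log2 ratio of −0.02, with the lower value in KO in 5 of 8. *Cldn5*, a tight junction protein, was read at 155 in WT and 126 in KO, or −0.30 on the log2 scale. VE-cadherin *Cdh5* and the adhesion molecule *Pecam1* had 323 and 202 in WT and 334 and 212 in KO. *Egfl7*, a secreted endothelial protein, had 285 and 273, and *Plvap* 1658 and 1611. *Vwf*, the platelet-binding von Willebrand factor that larger vessels make more than sinusoids do, had 166 and 145, a log2 ratio of −0.19.

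The sialomucin *Emcn* had 36.6, 27.0 and 22.6 reads over size factor in KO and 23.7, 29.6 and 34.2 in WT. The highest and the lowest value both belonged to KO, and the means of 28.7 ± 7.15 and 29.2 ± 5.29 were close (SD, n = 3 libraries each, exact permutation p = 0.900). *Nos3*, the endothelial nitric oxide synthase, had 70.1, 76.3 and 117 in KO and 44.9, 92.1 and 86.8 in WT. The KO library with the smallest size factor was highest and the WT library with the largest was lowest, and the rest overlapped (means 87.9 ± 25.7 and 74.6 ± 25.9, SD, n = 3 libraries each, exact permutation p = 0.600). For *Nos3* several sets of reads gave the deposited mean, and 1 was picked by the deposited ratio, as was done for *Bmp6*.

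**Figure D3:**
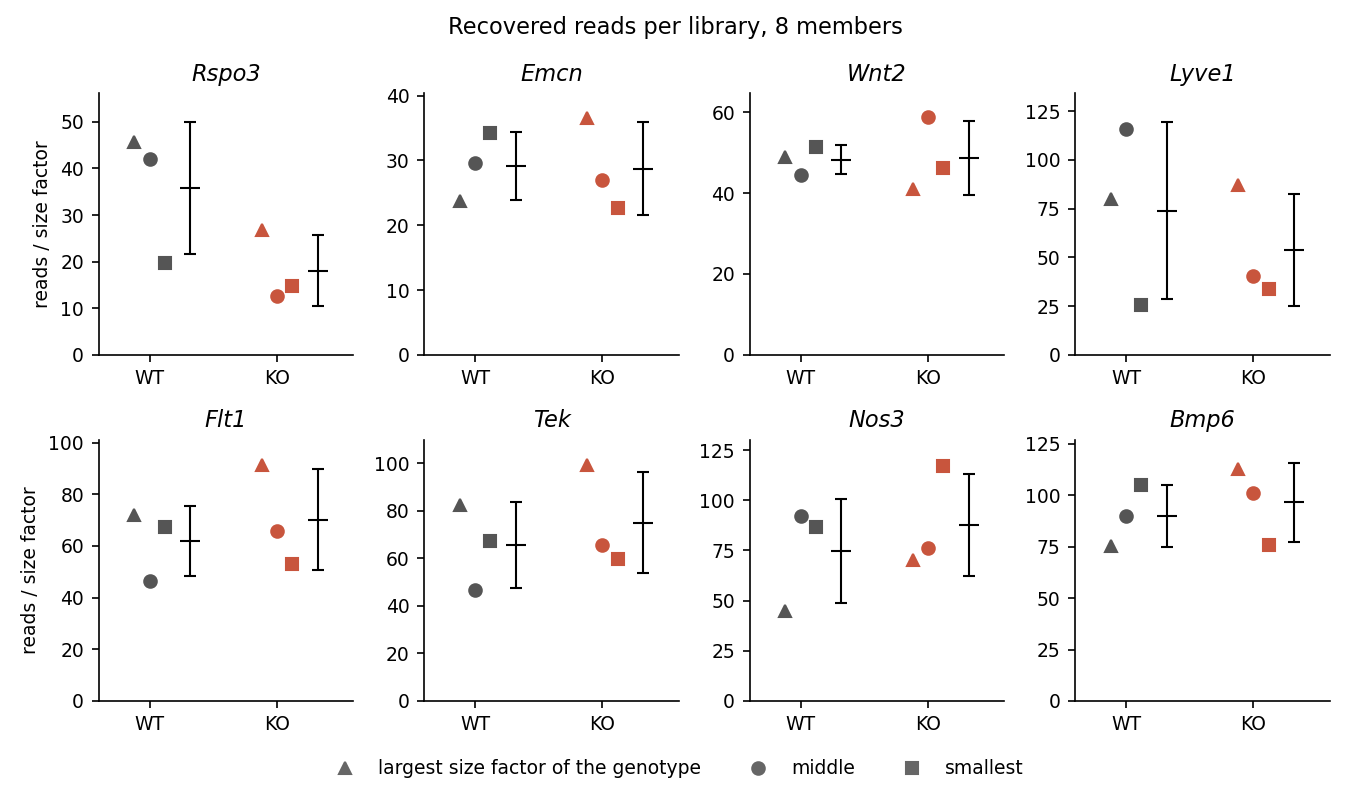
Recovered reads divided by size factor (y axis, from 0) for the 8 members with recovered reads, 1 panel each, in the 3 WT (grey) and 3 KO (red) libraries. Shapes mark the order of size factors within a genotype, black bars are the mean ± SD, and the genotypes overlap in all 8 panels, with *Rspo3* the nearest to a separation.

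Of the 4 angiocrine ligands, *Rspo3* alone passed the limit of 0.5. WT was at 33.8 and KO at 20, which is −0.76 on the log2 scale. The recovered whole reads were 35, 13 and 13 in KO and 56, 37 and 16 in WT, which gave 26.7, 12.6 and 14.7 in KO and 45.7, 42.1 and 19.6 in WT after division by size factor. A pair of KO libraries lay below every WT library, but the KO library with the largest size factor lay above the lowest WT library, so that the genotypes overlapped. Means were 18.0 ± 7.61 in KO and 35.8 ± 14.2 in WT (SD, n = 3 libraries each), and the exact permutation test gave p = 0.200. By limma on log2(reads over size factor + 1), the difference was −0.94 with an SE of 0.50 and a 95% interval from −2.04 to 0.16 (adjusted p = 0.999 over 3307 genes). With a term for the library of largest size factor in each genotype, limma gave the same difference with an SE of 0.40. Its 95% interval, not adjusted for the number of genes, ran from −1.79 to −0.09, and the adjusted p was 0.619. *Rspo3* (NCBI Gene 72780) spans 29452416 to 29535867 on the minus strand of chromosome 10, and 404 bases of its exons are shared with an antisense transcript, whose reads could not be told apart without strand information.

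The other three ligands had ratios between −0.05 and 0.10. *Wnt2* had 41.1, 58.9 and 46.3 reads over size factor in KO and 49.0, 44.4 and 51.4 in WT, with means of 48.8 ± 9.13 and 48.2 ± 3.56 (SD, n = 3 libraries each, exact permutation p = 1). All 3 WT values lay between the lowest and the highest KO value. By limma the difference was 0.00 with a 95% interval from −0.76 to 0.76, so changes of that size could have gone unseen. *Bmp2* had 148 in WT and 143 in KO.

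*Bmp6* had 113, 101 and 75.6 reads over size factor in KO and 75.1, 89.9 and 105 in WT. The means of 96.6 ± 19 and 90 ± 15 differed by less than either SD (n = 3 libraries each, exact permutation p = 0.7). *Bmp6* lies next to the targeted gene on chromosome 13 and points toward it. Its last exon, from 38498919 to 38500302 on the plus strand and 1384 bases long, shares up to 224 bases with the 3′ end of *Txndc5*, which runs on the minus strand from 38500079 to 38528824. Reads from these bases could have been counted for either gene, and *Txndc5* itself was 29.7-fold lower in KO. How the counting dealt with strand is not given in the sources used here.

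The last 4 members hold the largest positive and one of the largest negative ratios. *Ehd3*, a membrane trafficking protein typical of liver endothelium, was read at 808 in WT and 961 in KO, 0.25 higher on the log2 scale. *Gata4*, the transcription factor that sets the sinusoidal identity and is also made by stellate cells, was read at 406 in WT and 323 in KO, with a ratio of −0.33. *Oit3* and the nuclease *Dnase1l3* had ratios of 0.09 and −0.04. For these 4 genes the reads per library could not be recovered, so whether the differences exceed the spread between libraries was not tested.

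None of the 8 members with recovered reads separated the genotypes, beside 5.20% of 4208 recovered genes. Summed over these 8, reads over size factor were 565, 448 and 423 in KO and 473, 507 and 457 in WT, means of 479 ± 75.4 and 479 ± 25.6 (SD, n = 3 libraries each). Within the members, the highest library exceeded the lowest by a median of 2.04-fold, from 1.43 for *Wnt2* to 4.52 for *Lyve1*, and by 2.53-fold over 2846 genes of like read number. Across all 3307 genes, limma called 0 at an adjusted p under 0.05, with 54 (1.63%) at an unadjusted p under 0.05. The edgeR quasi-likelihood test likewise called 0, with 65 (1.97%) unadjusted. A limma fit with a term for the library of largest size factor in each genotype called 2, with 251 (7.59%) unadjusted. Without the library of largest size factor in each genotype, *Rspo3* and *Emcn* separated the genotypes, both KO-lower. With 2 libraries against 2, 34.6% of the 4208 recovered genes did so in one direction or the other, and 19.3% with KO lower.

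Other genes of the same pathways were looked at for both genotypes in the same table. Their counts stand beside 7.90% of the 11367 genes below −0.5 and 2.48% above 0.5. Of 16 further genes of VEGF, angiopoietin and Notch signalling, 0 lay above 0.5 and 1 below −0.5, with a median of 0.07. That 1 was *Calcrl*, the receptor that RAMP2 accompanies, at −0.56 with 33.5, 12.6 and 7.90 reads over size factor in KO and 75.9, 12.5 and 11 in WT. The WT library with the largest size factor stood far above the rest, and the other WT values lay below 2 of the 3 KO values. Of 20 endothelial transcription factors none passed 0.5, and the median was 0.07. *Lyl1*, an endothelial and blood cell factor, was the highest at 0.38, and its KO values of 16.0, 15.4 and 30.5 all lay above the WT values of 14.7, 13.6 and 14.7 (limma over 4208 genes, adjusted p = 0.999). It was the 1 factor that separated the genotypes among 13 with recovered sums of 60 to 600, beside 5.20% of all 4208 such genes.

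Of the 11367 genes, 7.90% lay below −0.5 and 2.48% above 0.5. Among 26 BMP receptors, SMADs and hepcidin targets, 2 lay below −0.5 and 0 above 0.5, with a median of −0.05. The receptors *Bmpr2* and *Acvr2a* were these, at −0.71 and −0.59. *Bmpr2* had 81.5, 35.7 and 51.9 reads over size factor in KO and 205, 55.7 and 55.0 in WT, so that the WT library with the largest size factor stood far above the rest. *Gdf2*, which encodes the endothelial ligand BMP9, had 271 in WT and 357 in KO. Of 24 genes listed as Wnt and R-spondin receptors and pericentral targets, further Wnt ligands included, 2 lay above 0.5 and 1 below −0.5, with a median of 0.15. The Wnt receptors *Fzd4* and *Fzd7* had ratios of 0.77 and 0.66, and the ligand *Wnt4* −0.67. Its reads over size factor were 38.1, 40.5 and 46.3 in KO and 44.9, 122 and 53.8 in WT, and 1 WT library was far above the other two. Over the 5 genes of this list with recovered reads, *Wnt4* among them, the sums were 156 to 171 in KO and 176 to 202 in WT. They did not overlap and were opposite in sign to the median of the list. In the WT library with the highest sum, *Wnt4* alone gave 122 of the 202. Each of the other genes was lower in that library than in the KO library of size factor 1.04. How far the gap between the sums rested on single genes was not tested. None of the 5 separated the genotypes alone. The exact permutation test of the sums gave the smallest p that 3 libraries against 3 allow, which is above 0.05.

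Of 29 further endothelial genes, 1 lay above 0.5, beside 2.48% of the 11367 genes. That gene was the thrombin receptor thrombomodulin *Thbd* at 0.61. Its KO values of 50.3, 49.2 and 37.3 all lay above its WT values of 35.1, 17.1 and 29.3, and limma gave an adjusted p of 0.999 over 4208 genes. It was the 1 gene that separated the genotypes among 17 of this list with recovered sums of 60 to 600, beside 5.20% of all 4208. Coagulation factor VIII *F8*, made by sinusoidal endothelium, had a ratio of −0.47. The median of the 29 further endothelial genes was −0.02.

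Markers of the neighbouring cells were read in the same libraries. Counts past 0.5 in these lists stand beside 7.90% of the 11367 genes below −0.5 and 2.48% above 0.5. Markers of Kupffer cells, the macrophages of the sinusoids, had a median log2 ratio of 0.13 over 16 genes. Of these, 2 lay above 0.5, *Marco* at 0.62 and *Adgre1* at 0.50. *Marco* had 52.6, 49.2 and 130 reads over size factor in KO and 13.9, 69.4 and 48.9 in WT, so that the genotypes overlapped. Over the 3 Kupffer markers with recovered reads, the sums were 147 to 238 in KO and 125 to 179 in WT. Stellate cell and fibroblast markers had a median of −0.14 over 17 genes, with 2 above 0.5 and 3 below −0.5, among them the collagen *Col1a1* at 0.76 and the pericyte gene *Rgs5* at −0.98. Over the 6 stellate markers with recovered reads, the sums were 157 to 238 in KO and 199 to 297 in WT. Hepatocyte markers had a median of −0.14 over 11 genes, and 0 lay above 0.5 and 1 below −0.5. Cholangiocyte markers had a median of −0.02 over 7 genes, with 1 above 0.5. Lymphocyte and NK cell markers had the lowest median of these lists, −0.44 over 4 genes, all 4 lower in KO and 1 below −0.5, the leukocyte antigen *Ptprc* at −0.65. Over 12 lymphocyte markers with recovered reads, the sums were 105 to 135 in KO and 129 to 236 in WT. Red cell genes had the highest median of these lists, 0.67 over 6 genes, and 4 lay above 0.5. Their lead gene *Slc4a1*, the band 3 protein, had 28.2, 108 and 287 reads over size factor in KO and 21.2, 35.3 and 47.7 in WT. The order of the libraries in this blood gene differed from that of the summed endothelial members, whose highest KO library was the lowest KO library of *Slc4a1*. The part of these cells in the members' values was not tested.

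**Figure D4:**
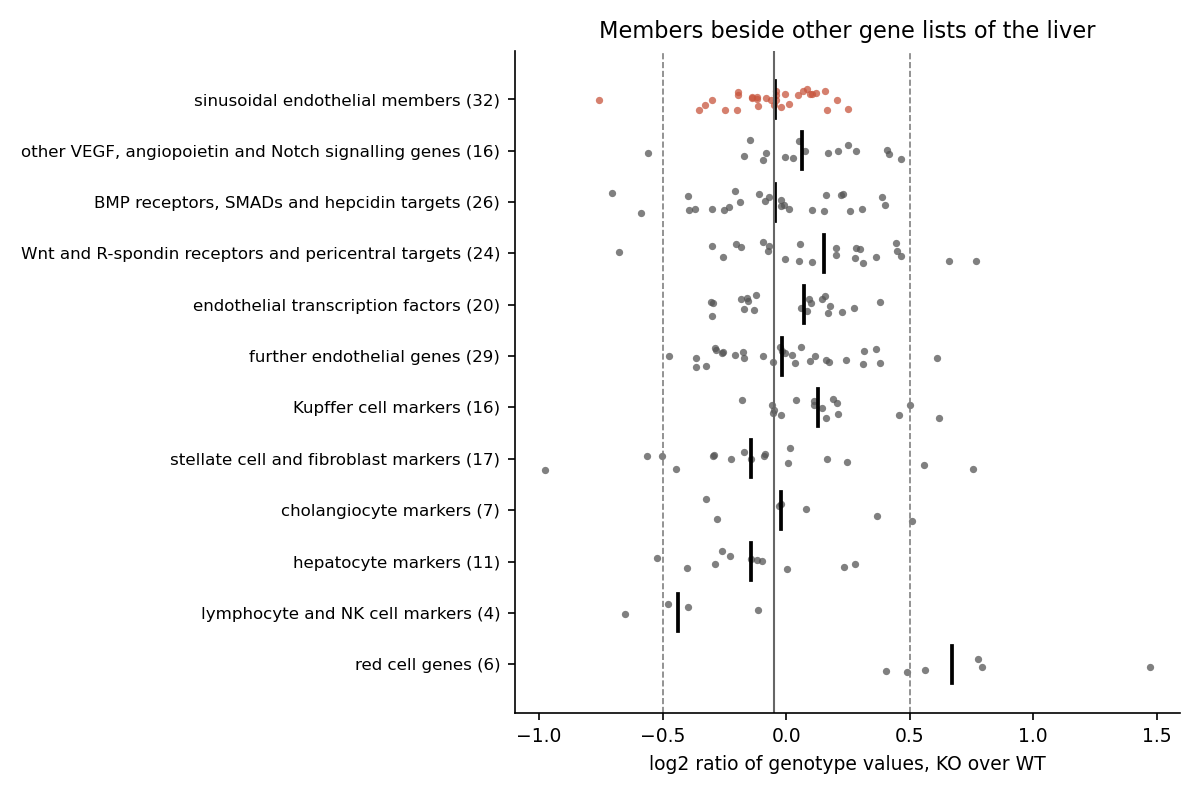
Log2 ratio of the genotype values, KO over WT (x axis), of the 32 members (red, top) and of the genes of 11 other lists averaging 10 or more (grey, number in brackets). Black bars are medians, the thin line is the median of all genes at −0.05 and dashed lines stand at −0.5 and 0.5. Apart from *Rspo3*, the members lie between −0.35 and 0.25, while the red cell genes all lie to its right.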

How the data were processed

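Liver RNA of 3 WT and 3 KO pools was sequenced as 6 libraries. The authors deposited 1 expression signal per gene and genotype, on the scale of read counts divided by DESeq2 size factors, and percent values and counts of clean reads per library. The submitters' processing notes name HISAT2, Bowtie2, RSEM and the build mm10. The deposited table also holds the authors' log2 ratio, p-value and adjusted p-value, which were not used as results. The log2 ratio was computed from the genotype values. Reads per library were recovered by a search of all sets of 6 whole numbers that yield the mean of a gene, for sums of normalized reads up to 600 within 2.5 times the rounding of the deposited values. A single set was left for 8063 of 8081 genes with a sum up to 400 and for 472 of 979 above it. For a further 411, *Nos3* and *Bmp6* included, the set was taken whose log2 ratio the deposited one equals by a share of 0.594 to 1. Among 1077 genes past 0.5, the recovered direction matched the deposited one in 1077.

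R 4.3.3 with limma 3.58.1 compared log2(normalized reads + 1) between genotypes for sums of 60 to 400, with Benjamini-Hochberg adjustment, and edgeR 4.0.16 was an alternative. Single genes were tested with two-sided exact permutation tests over the libraries. Each recovered library is 1 pool of 3 mice, though its pool number is unknown. The tests thus set the difference between genotypes against the spread between 3 pools of each. Intervals from reads cover counting error only. The recovery of single sets and the limma fit were tried on simulated reads, drawn without any effect shared by the genes of a library. The choice of a set by the deposited ratio was not tried in this way. Gene positions came from GENCODE M21 on GRCm38, and promoters from RefSeq on GRCm38.p6, for 18 of the members. Every member is named. Of each other list, at most the 3 genes with the largest ratio are named. The members, lists and recovery were chosen with earlier results of these data known, and the choice of a read set by the deposited ratio was made after seeing the data.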

Additional observations from a re-analysis of the deposited data

How the results depend on the processing

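The count of members past the limit of 0.5 was 1, and it became 5 with a limit of 0.25 and 0 with a limit of 1. It was 1 without a minimum mean value and after centring on the median of all genes. Centring moved the members' median log2 ratio from −0.045 to 0.0027. The count of genes called by limma went from 0 to 2 with a term for the library of largest size factor in each genotype, neither of them a member, and was 0 in the other 12 alternatives. On every resolved gene the same term gave 3 calls among 4208, none a member. Of the 8 members with recovered reads, 0 separated the genotypes, beside 5.20% of 4208 recovered genes. Without the library of largest size factor in each genotype 2 did, beside 34.6% of the 4208. The limma difference of *Emcn* changed from −0.033 to 0.053 with TMM factors. Leaving out 1 library at a time gave limma differences, on the log2 scale, of −1.31 to −0.72 for *Rspo3*, −0.95 to 0.11 for *Lyve1*, −0.22 to 0.12 for *Emcn*, −0.044 to 0.34 for *Flt1*, −0.14 to 0.11 for *Wnt2*, −0.029 to 0.26 for *Bmp6*, −0.062 to 0.45 for *Nos3* and −0.028 to 0.38 for *Tek*, so that the sign was kept in *Rspo3* alone. Fits with *Bmp6*, *Nos3* and *Tek* used every resolved gene, a choice made after seeing the data. No paired analysis was possible because the genotypes share only pool number 2 and the recovered libraries carry no pool number.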
